A study of Bos taurus with 12 samples.

Results

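The 8 genes described here encode receptors and adhesion molecules that move leukocytes between blood, lymphoid organs and tissue: S1PR1 (ENSBTAG00000005990), S1PR4 (ENSBTAG00000000381), CCR7 (ENSBTAG00000015133), CCR2 (ENSBTAG00000013586), SELPLG (ENSBTAG00000031851), ICAM1 (ENSBTAG00000010303), ICAM3 (ENSBTAG00000015742) and ITGAM (ENSBTAG00000047238). They were taken by gene name from a table of 27429 genes, each name matched 1 row, and all 8 were among the 11990 genes with a mean count of at least 10. Blood came from the jugular vein of female Holstein cows on day 7 after calving. A group of 6 cows had been given trace elements parenterally, and 6 cows were controls; which elements and what dose are not given in the sources used. The blood was kept in RNAlater, and its RNA was depleted of haemoglobin transcripts and sequenced in 1 library for each cow. The labels call the material both blood and white blood cells. Library totals ran from 6778640 to 16851541 counts. Over the 12 libraries S1PR1 was covered by 188 to 1535 counts, CCR7 by 184 to 1033, SELPLG by 307 to 15902 and ITGAM by 694 to 4513. CCR2 (22 to 288 counts) and ICAM1 (12 to 1720) were the thinnest.

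Leukocytes leave and enter the blood by steps that use different receptors, known mainly from human and mouse. Lymphocytes leave lymph nodes along a gradient of the lipid sphingosine-1-phosphate, sensed by S1PR1, while S1PR4 is a receptor for the same lipid on blood cells. CCR7 guides naive lymphocytes and mature dendritic cells into lymph nodes towards CCL19 and CCL21, and CCR2 guides monocytes out of bone marrow towards CCL2. SELPLG (PSGL-1) lets leukocytes roll on selectins, ICAM1 and ICAM3 are bound by the integrin LFA-1, and ITGAM (CD11b) pairs with ITGB2 (CD18) to form the integrin Mac-1 of neutrophils and monocytes. ICAM1 is known to be induced by inflammatory cytokines. Fewer cells of a type and less RNA per cell cannot be told apart in RNA from whole blood.

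Libraries stood apart by their overall expression. Along the first principal component, which held 56.6% of the variance, supplemented cows 2 and 6 and control cows 4 and 5 lay at 54.1 to 113, and the other 8 libraries lay at -66.3 to -8.20. These 4 libraries held little B cell marker RNA, at a summed 1028 to 2497 CPM (counts scaled to the size of the library with TMM factors) over 15 markers, against 4771 to 7315 CPM in the other 8. Over 12 monocyte markers they held 6436 to 9834 CPM against 1189 to 4300 CPM. Over 16 neutrophil markers they held 5739 to 103101 CPM against 666 to 2742 CPM, the highest in supplemented cow 6. T cell markers overlapped, at 2123 to 3707 CPM against 829 to 2748 CPM over 19 genes. None of these marker genes was without counts in all libraries. Since the 4 libraries are 2 from each group, the fold changes of the 8 genes are also given for the 8 other libraries alone; they were set apart after the data were seen, by a component that includes the genes described here.

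**Figure D1:**
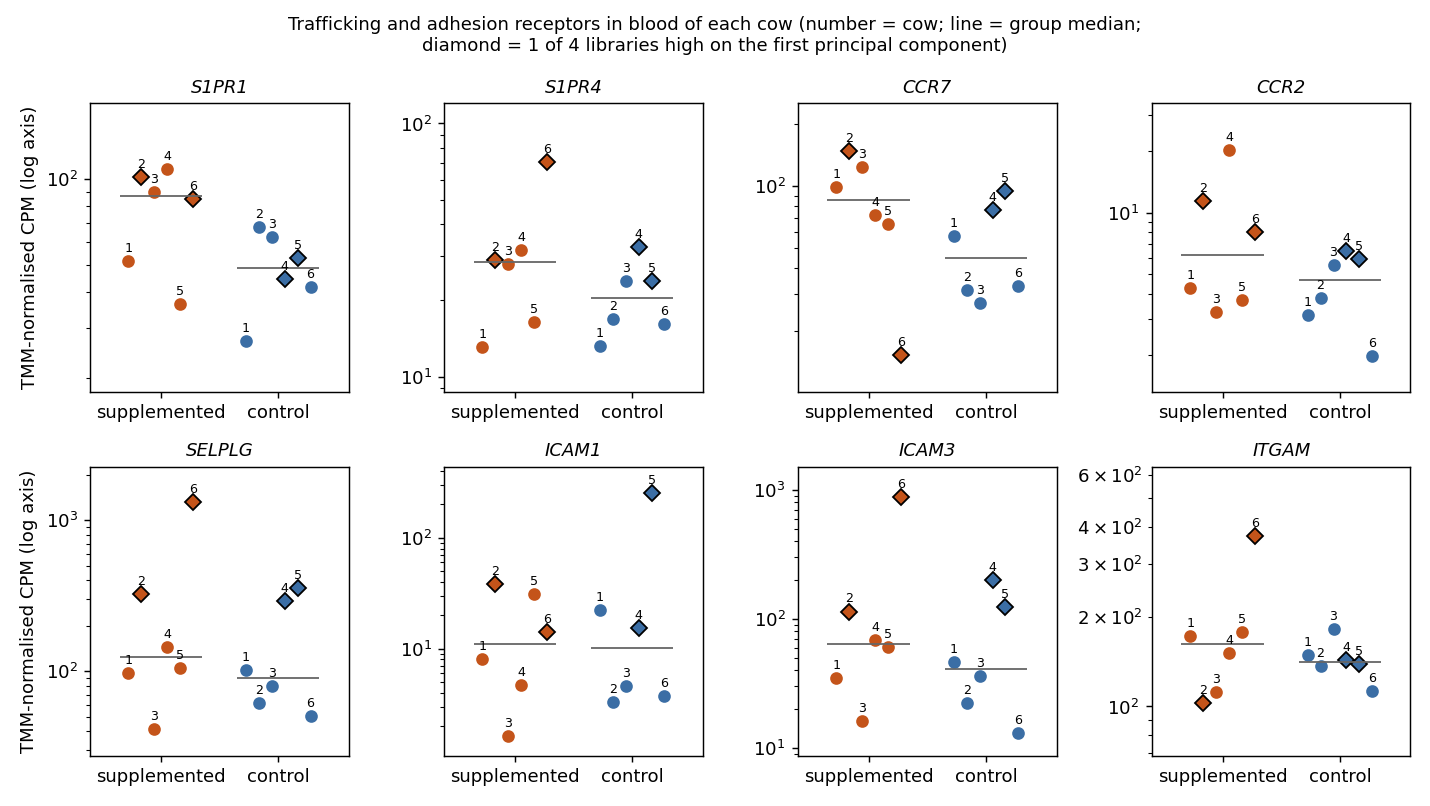
TMM-normalised CPM of the 8 genes (log axis) in each cow, numbered within its group, with the group median as a line and diamonds for the 4 libraries high on the first principal component. SELPLG and ICAM3 are highest in the diamonds of both groups, CCR7 is lowest in supplemented cow 6 at 15.2 CPM, and ICAM1 is highest in control cow 5 at 255 CPM.

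The comparison of supplemented with control cows asked whether the supplement went with a different blood transcriptome, and here whether trafficking genes differed. None of the 8 genes passed in edgeR's quasi-likelihood test, each with an adjusted p of 0.999, and 0 of 11990 genes passed (0%). S1PR1 was the only one of the 8 with an unadjusted p under 0.05, against 191 genes or 1.59% of all genes tested, 0.934% higher and 0.659% lower in supplemented cows. DESeq2, which gave ICAM1 no p, passed 0 of the 8 genes after adjustment, against 2 of 11755 genes with a p (0.017%), and 1 before it, against 284 genes (2.42%). In limma-voom 0 of the 8 passed after adjustment, against 0 of all genes, and 0 before it, against 166 genes (1.38%). Log2 fold changes were positive for 7 of the 8 genes, against 51.5% of all genes, and their median was 0.69 against 0.01 over all genes. Without supplemented cow 6 there were 5 positive fold changes, against 48.9% of all genes, and the median was 0.08. In the 8 libraries all 8 were positive, against 52.5% of genes, with a median of 0.50. In all 8 genes the ranges of the 2 groups overlapped; ranges were separate for 0.05% of all genes.

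S1PR1, the egress receptor, ran from 36.4 to 108 CPM in supplemented cows (median 87.2) and from 26.9 to 67.6 CPM in control cows (median 48.4). Supplemented cows 2, 3, 4 and 6 stood above every control cow, at 101, 89.8, 108 and 84.5 CPM, and supplemented cow 5 stood below 5 of the 6 control cows. Its log2 fold change was 0.67 ± 0.29 (SE over 6 cows in each group), with an unadjusted edgeR p of 0.036 and an adjusted p of 0.999. An exact two-sided permutation of log2 CPM over all splits of the cows gave p = 0.0736. With 1 library left out at a time the fold change stayed between 0.55 and 0.82, and the unadjusted p was under 0.05 in 5 of 12 such fits, with a highest value of 0.0818 without supplemented cow 4. With no scaling factor the fold change was 0.61 (edgeR unadjusted p = 0.0573). The TMM factor was 0.717 in supplemented cow 6, which raises its CPM, and 0.946 to 1.09 in the other cows. In the 8 libraries alone the fold change was 0.52 ± 0.39 (unadjusted p = 0.213, edgeR adjusted p = 0.986). The authors' deposited table gives S1PR1 a log2 fold change of 0.68 with an adjusted p of 0.9996 (unadjusted 0.0254).

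S1PR4, the sphingosine-1-phosphate receptor of blood cells, ran from 13.1 to 70.6 CPM in supplemented cows (median 28.4) and from 13.2 to 32.6 CPM in control cows (median 20.4). The highest value was that of supplemented cow 6, and the other supplemented cows, at 13.1 to 31.5 CPM, lay within the control range or just below it. Its log2 fold change of 0.58 ± 0.38 (edgeR adjusted p = 0.999) was 0.34 ± 0.30 in the 8 libraries and 0.17 without supplemented cow 6, the library with the highest neutrophil marker sum. Counts of S1PR4 per count of S1PR1 in the same library were 0.835 in supplemented cow 6 and 0.735 in control cow 4, and 0.25 to 0.489 in the other 10 cows. The highest neutrophil marker sums, 103101 and 14634 CPM, were in the same 2 cows; their part in this ratio was not tested.

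CCR7, the homing receptor, ran from 15.2 to 147 CPM in supplemented cows (median 85.8) and from 27.4 to 94.3 CPM in control cows (median 45.1). Supplemented cows 1, 2 and 3, at 99.0, 147 and 123 CPM, stood above all control cows, while supplemented cow 6 was the lowest of the 12. The log2 fold change was 0.71 ± 0.47 (edgeR adjusted p = 0.999; exact permutation p = 0.333). Without supplemented cow 6 it was 0.94, with an unadjusted p of 0.0223 in edgeR, where 1.63% of genes had a p under 0.05, and without supplemented cow 2 it was 0.50.

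In the 8 libraries low on the first component the groups were separate for CCR7. The 4 supplemented cows held 65.9 to 123 CPM and the 4 control cows 27.4 to 57.5 CPM, with a log2 fold change of 1.28 ± 0.28 (edgeR unadjusted p = 0.00129, adjusted p = 0.986). By p it was the gene at rank 6 of 11863 in that fit, in which 3.46% of genes had an unadjusted p under 0.05 (1.73% higher in supplemented cows) and 0 passed the adjustment (0%). Among the other 7 genes 0 had such a p there. Groups were separate for 2.66% of genes, 1.11% with supplemented cows higher, and the exact permutation p for CCR7 was 0.0286, the smallest that 4 against 4 cows can give. These 8 libraries were set apart after the data were seen, by a component that includes CCR7. The choice left out the lowest and the highest supplemented cow and the 2 highest control cows for CCR7, so these p-values only describe the set. All 4 supplemented cows among the 8 had the same index sequence, while 1 of the 4 control cows had it and 3 had another, so that group and index cannot be told apart there. Among all libraries with the first index, 5 supplemented and 3 control, the log2 fold change of CCR7 was 0.18 (edgeR unadjusted p = 0.774). That set takes in supplemented cow 6 and control cows 4 and 5, which are not among the 8, so the cows differ as well as the index. With the index as a term in the fit to all libraries the fold change was 0.71 (edgeR unadjusted p = 0.177). In the 4 set-apart libraries the order was not the same: CCR7 was at 147 and 15.2 CPM in supplemented cows 2 and 6 and at 76.8 and 94.3 CPM in control cows 4 and 5.

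CCR2, the receptor for CCL2, was low in all cows. It ran from 3.25 to 20.2 CPM in supplemented cows (median 6.15) and from 1.97 to 6.49 CPM in control cows (median 4.67). Supplemented cows 2, 4 and 6, at 11.4, 20.2 and 8.03 CPM, stood above the controls and the other 3 stood among them. The log2 fold change was 0.92 ± 0.48 (edgeR unadjusted p = 0.075, adjusted p = 0.999) and was 0.46 without supplemented cow 4 and 1.14 ± 0.64 in the 8 libraries. Its unadjusted p was under 0.05 in 2 of the 12 fits that left out 1 library, those without supplemented cow 3 or 5.

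SELPLG, the selectin ligand, ran from 41.5 to 1316 CPM in supplemented cows (median 125) and from 50.7 to 355 CPM in control cows (median 91.0). ICAM3, a leukocyte ligand of LFA-1, ran from 16.2 to 882 CPM (median 64.4) against 13.1 to 202 CPM (median 41.0). For both genes supplemented cow 6 was the highest of all, and the 4 set-apart libraries lay above the 8 others without overlap: 291 to 1316 against 41.5 to 145 CPM for SELPLG and 114 to 882 against 13.1 to 68.4 CPM for ICAM3. The 4 libraries were set apart by a component that includes both genes, so the separation is only a description. The share of all genes separated in this way is not given here. Both groups had 2 cows among the high ones.

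The log2 fold change of SELPLG was 1.11 ± 0.82 and that of ICAM3 1.41 ± 0.97 (edgeR adjusted p = 0.999 for each; exact permutation p = 0.55 and 0.513). Without supplemented cow 6 they turned to -0.13 and -0.33, and in the 8 libraries they were 0.41 ± 0.36 and 0.63 ± 0.50 (edgeR adjusted p = 0.986 for each). ICAM3 counts per SELPLG count stayed within 0.258 to 0.695 over the 12 cows. SELPLG counts per CCR7 count, by contrast, ran from 0.336 in supplemented cow 3 to 86.4 in supplemented cow 6, and from 0.984 to 3.79 in the other 10 cows.

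ICAM1, the inducible integrin ligand, varied most of the 8 genes, 157-fold between its lowest and highest cow. It ran from 1.62 to 38.1 CPM in supplemented cows (median 11.1) and from 3.28 to 255 CPM in control cows (median 10.03). The highest value was that of control cow 5, and the next highest control cow held 22.3 CPM. ICAM1 was the only one of the 8 with a negative log2 fold change, -1.63 ± 1.13 (edgeR adjusted p = 0.999), and the sign rested on that cow: without control cow 5 it was 0.73, and in the 8 libraries 0.47 ± 0.93. Control cow 5 also held the highest platelet marker sum, 2828 CPM against 133 to 1091 CPM in the other cows over 8 markers. Endothelial and stromal markers, 10 genes, summed to 128 CPM in that cow and 15.1 to 110 CPM elsewhere; the part of either in the result was not tested.

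ITGAM, the alpha chain of Mac-1, was the most even of the 8. It ran from 103 to 374 CPM in supplemented cows (median 162) and from 113 to 183 CPM in control cows (median 141). Supplemented cow 6 was the highest and the other 11 cows lay between 103 and 183 CPM. The log2 fold change was 0.34 ± 0.28 (edgeR adjusted p = 0.999), 0.00033 without supplemented cow 6 and 0.08 ± 0.18 in the 8 libraries. Its partner ITGB2 ranged over 620 to 1934 CPM with the supplement and 657 to 1063 CPM without it, with a log2 fold change of 0.26 ± 0.26 that was -0.03 without supplemented cow 6 and 0.07 in the 8 libraries. ITGAM did not follow the set-apart libraries: supplemented cow 2 was the lowest of all and control cows 4 and 5, at 143 and 139 CPM, lay close to the control median.

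**Figure D2:**
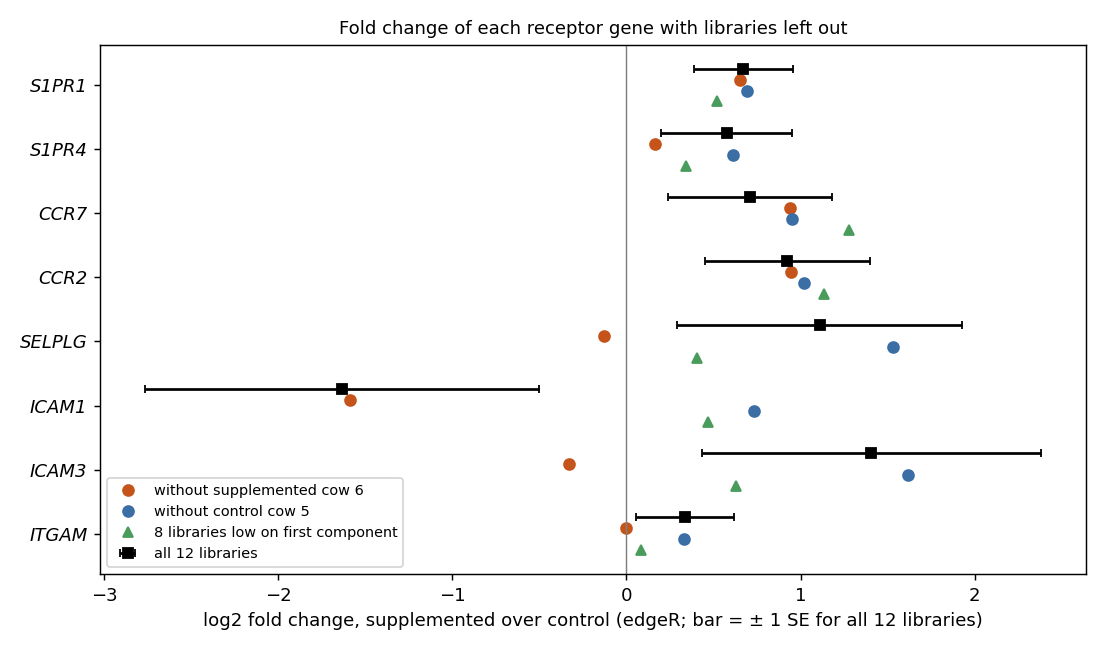
Log2 fold change (supplemented over control, edgeR) of the 8 genes with all 12 libraries (squares, bars ± 1 SE), without supplemented cow 6, without control cow 5, and in the 8 libraries low on the first component. SELPLG and ICAM3 turn negative without supplemented cow 6, and ICAM1 turns positive without control cow 5. S1PR1, S1PR4, CCR7, CCR2 and ITGAM stay positive in all 4 settings, with ITGAM at 0.00033 without supplemented cow 6.

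The first index sequence divided the libraries into 5 supplemented and 3 control cows with the same index, and 1 supplemented and 3 control cows with the other, which are too few to compare. The labels do not call it a batch. Within the larger set the log2 fold change was 0.48 for S1PR1, 0.25 for S1PR4, 0.18 for CCR7, 0.40 for CCR2, 0.50 for SELPLG, 0.82 for ICAM3, 0.35 for ITGAM and -2.92 for ICAM1. With the index as a term in the fit to all libraries S1PR1 stood at 0.68 and CCR7 at 0.71, and 0 of the 8 genes passed in either edgeR fit. Within the larger set ICAM1 was the only one of the 8 with an unadjusted p under 0.05, against 291 of all genes tested. How many genes were tested in that set is not given here, so the count of the 8 cannot be set against a share. With the index term S1PR1 was the only one, against 144 of the 11990 genes tested. In both fits 0 of all genes passed the adjustment.

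The genes differed in how much they varied between cows. The SD of log2 CPM over the 12 libraries was 1.95 for ICAM1, 1.695 for ICAM3 and 1.44 for SELPLG, above 98.7%, 97.5% and 95.3% of the genes tested, whose median SD was 0.44. It was 0.98 for CCR7, 0.88 for CCR2, 0.69 for S1PR4, 0.62 for S1PR1 and 0.48 for ITGAM. In the 8 libraries ICAM1 was still at 1.39, above 98.5% of genes, SELPLG was at 0.60 and ITGAM at 0.28.

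Because the libraries fell into separate sets, correlations between the genes were computed over the 8 libraries alone, for 28 pairs, with exact two-sided permutation of all 40320 pairings. SELPLG and ICAM3 formed the only pair that passed, with Pearson r = 0.953 (exact p = 0.000372, adjusted p = 0.0104) and Spearman rho = 0.952 (exact p = 0.00114, adjusted p = 0.0319). It was 0.933 without the 2 cows farthest from the median of SELPLG and 0.951 with group means removed. S1PR1 and S1PR4 had r = 0.845 (exact p = 0.00945, adjusted p = 0.132; rho = 0.810, exact p = 0.0218, adjusted p = 0.203), and r = 0.695 without the 2 farthest cows.

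S1PR1 and ICAM1 had r = -0.762 (exact p = 0.0296, adjusted p = 0.201; rho = -0.643, exact p = 0.0962, adjusted p = 0.337), which missed the threshold after adjustment. It was -0.805 without the 2 cows farthest from the median of S1PR1 and -0.853 with group means removed (exact p = 0.0156, permuted within groups and not adjusted). No relation between the egress and homing genes, or between homing and adhesion genes, passed. S1PR1 and CCR7 had r = 0.207 (exact p = 0.614, adjusted p = 0.913; rho = 0.238, exact p = 0.582, adjusted p = 1) and 0.209 without the 2 farthest cows. With group means removed it was -0.263, from r of 0.351 in the 4 supplemented cows and -0.908 in the 4 control cows. CCR7 and SELPLG had r = 0.115 (exact p = 0.778, adjusted p = 0.913; rho = 0.0952, exact p = 0.84, adjusted p = 1), and CCR7 and ITGAM r = -0.0726 (exact p = 0.855, adjusted p = 0.913; rho = -0.262, exact p = 0.536, adjusted p = 1). Without the 2 cows farthest from the median of CCR7 these 2 values were 0.821 and 0.837, so that they rested on which cows were included. With group means removed they were -0.258 and -0.399. Since the groups were separate for CCR7 in these libraries, each pooled r of CCR7 also carries the group difference. ITGAM with ICAM3 had r = 0.781 (exact p = 0.0254, adjusted p = 0.201; rho = 0.667, exact p = 0.0831), which was 0.291 without the 2 cows farthest from the median of ICAM3, so that it rested on those cows. Within the larger index set only 5 of the 8 libraries remained, too few for a correlation.

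**Figure D3:**
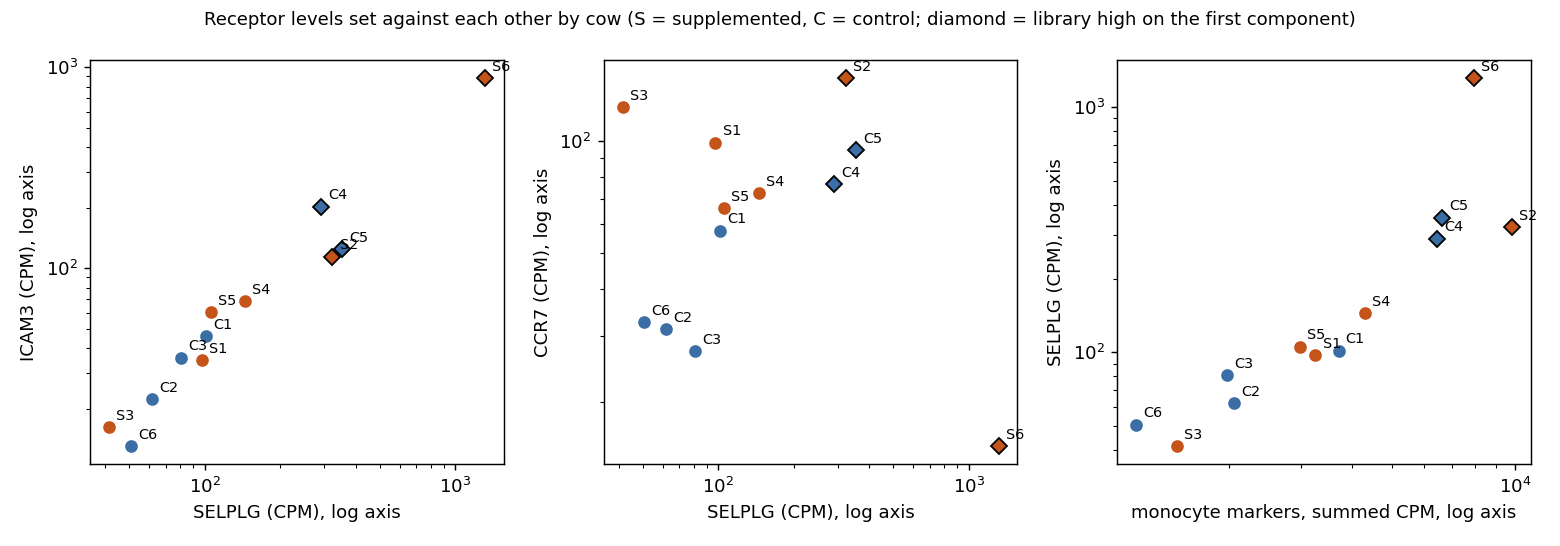
Levels by cow on log axes: ICAM3 against SELPLG, CCR7 against SELPLG, and SELPLG against the summed CPM of 12 monocyte markers (S, supplemented; C, control; diamonds, the 4 libraries high on the first component). ICAM3 is broadly higher in cows with more SELPLG. CCR7 is lowest in supplemented cow 6, where SELPLG is highest, but is highest in supplemented cow 2, where SELPLG is also high (323 CPM). Supplemented cow 6 holds more SELPLG than supplemented cow 2 at a lower monocyte marker sum (7949 against 9834 CPM).

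Marker genes of 6 cell types were set beside each gene in the same 8 libraries, 48 relations in all, as the mean log2 CPM of each list; this was added after the data were seen. After adjustment 3 passed by Pearson and 0 by Spearman. Before adjustment 12 of the 48 had an exact p under 0.05 by Pearson. SELPLG went with monocyte markers (r = 0.948, exact p = 0.000298, adjusted p = 0.00952; rho = 0.905, exact p = 0.00456, adjusted p = 0.148), and so did ICAM3 (r = 0.933, exact p = 0.000397, adjusted p = 0.00952; rho = 0.881, exact p = 0.00724, adjusted p = 0.148). Neither gene was particular to monocyte markers. With NK, T and B cell markers r was 0.851, 0.792 and -0.801 for SELPLG, and 0.823, 0.781 and -0.773 for ICAM3. None of these passed the adjustment. CCR2 went with T cell markers (r = 0.925, exact p = 0.00102, adjusted p = 0.0163; rho = 0.833, exact p = 0.0154, adjusted p = 0.148). CCR2 was not particular to T cell markers. With NK markers its r was 0.776 (exact p = 0.0165, adjusted p = 0.111; rho = 0.833, exact p = 0.0154, adjusted p = 0.148), and 0.915 without the 2 cows farthest from the NK marker median. Its r with monocyte markers was 0.607 (exact p = 0.0711, adjusted p = 0.219; rho = 0.524, exact p = 0.197, adjusted p = 0.415). Without the 2 cows farthest from the marker median the 3 values of r that passed were 0.939, 0.840 and 0.903. For CCR7 the highest r with any of the 6 lists was 0.540, with neutrophil markers (exact p = 0.171, adjusted p = 0.36; rho = 0.524, exact p = 0.197, adjusted p = 0.415). This r was -0.315 in supplemented and 0.808 in control cows, and 0.487 with group means removed. In that form the values of CCR7 farthest from 0 were -0.639 with NK and -0.636 with T cell markers (exact p = 0.111 and 0.113, permuted within groups and not adjusted). With B cell markers its r was 0.972 in supplemented and -0.986 in control cows. For S1PR1 the r farthest from 0 was -0.520, also with neutrophil markers (exact p = 0.186, adjusted p = 0.373; rho = -0.524, exact p = 0.197, adjusted p = 0.415). It was -0.225 without the 2 farthest cows and -0.763 with group means removed (exact p = 0.0226, permuted within groups and not adjusted). With T cell markers S1PR1 had r = 0.431 (exact p = 0.292, adjusted p = 0.5; rho = 0.262, exact p = 0.536, adjusted p = 0.696).

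The genes most like each receptor gene were ranked among 9170 named genes of at least 5 CPM by Pearson r of log2 CPM over all 12 libraries, as a description. For ICAM1 they were the transcription factor IRF1 (r = 0.969), the NF-kB inhibitor TNFAIP3 (0.969) and the cytokine TNFSF9 (0.947), with r of 0.967, 0.931 and 0.910 in the 8 libraries. For SELPLG they were FYB1, an adaptor of integrin activation (0.994), the copper transporter SLC31A2 (0.992) and PIK3CD, a lipid kinase of leukocytes (0.990), at 0.962, 0.976 and 0.955 in the 8 libraries. For ICAM3 they were the arginine synthesis enzyme ASS1 (0.995), C7H19orf38 (0.993) and the calcium-binding protein S100A11 (0.993), at 0.971, 0.986 and 0.976.

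CCR2 was most like CXCR6, the receptor for CXCL16 (0.959, and 0.973 in the 8 libraries), followed by the nucleotide hydrolase SAMHD1 (0.908) and DOCK10 (0.907), which stood at 0.956 and 0.934 in the 8 libraries. S1PR1 was most like TOX4 (0.938), the Golgi GTPase RAB33B (0.927) and the signal peptidase subunit SPCS2 (0.908), at 0.965, 0.965 and 0.920 in the 8 libraries. S1PR4 was most like SMIM4 (0.928), LRATD2 (0.927) and TM6SF1 (0.925), at 0.775, 0.750 and 0.808 in the 8 libraries. For CCR7 the values were lower, 0.888 for ZDHHC13, 0.875 for RNF157 and 0.867 for ZNF22, and 0.877, 0.740 and 0.909 in the 8 libraries. ITGAM was like PARVG (0.919) and AVL9 (0.910), values that were 0.635 and 0.679 in the 8 libraries.

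The wider pathway was read from 7 lists of 136 genes in all, of which 111 were tested. In edgeR 0 of them passed, and 5 had an unadjusted p under 0.05 (4 higher, 1 lower), against 1.59% of all genes (0.934% higher, 0.659% lower). Of these 5, CCL2 had 254 of its 274 counts in supplemented cow 6 and CCL20 had 112 of its 134 counts in control cow 5, and each passed the count minimum through that cow alone. ITGA9 had 982 of its 1238 counts in supplemented cow 6, so the count of 5 rests in part on single libraries; the others were S1PR1 and ST3GAL4. Over the 111 genes 70.3% had a positive log2 fold change with a median of 0.24, against 51.5% and 0.01 over all genes.

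Among 15 genes of sphingosine-1-phosphate receptors and metabolism 8 were positive, with a median of 0.04 that was -0.0017 with no scaling factor, -0.03 without supplemented cow 6 and 0.09 in the 8 libraries. S1PR5, an egress receptor of NK cells, differed by 0.15 ± 0.27 and S1PR2 by -0.62 ± 0.62, turning to -0.04 and 0.13 in the 8 libraries. KLF2, the transcription factor known to drive S1PR1, averaged 164 ± 44.8 CPM with the supplement and 168 ± 58.0 CPM without it (SD over 6 cows), a log2 fold change of -0.03 ± 0.24. FOXO1, another factor of lymphocyte homing genes, differed by 0.04 ± 0.27, and CD69, which holds S1PR1 inside the cell, by -0.21 ± 0.59, turning to 0.47 without control cow 5 and 0.48 in the 8 libraries.

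Of 18 chemokine receptors 15 were positive (median 0.38, 0.20 without supplemented cow 6, and 0.68 in the 8 libraries). The neutrophil receptors CXCR2 and CXCR1 differed by 1.68 ± 1.28 and 1.001 ± 1.32 and turned to -0.26 and -0.48 without supplemented cow 6, in which they stood at 506 and 495 CPM, and were 0.85 and 0.67 in the 8 libraries; both are also among the 16 neutrophil markers. CXCR4, the marrow retention receptor, differed by 0.07 ± 0.65 (0.79 in the 8 libraries), CXCR3 of effector T cells by 0.39 ± 0.59, CXCR5 of B cell follicles by -0.04 ± 0.47 (0.16 without supplemented cow 6), CX3CR1 by 0.16 ± 0.58 (-0.43 without supplemented cow 6) and CCR6 by 0.40 ± 0.46.

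Of 15 selectins, ligands and their enzymes 11 were positive (median 0.36, -0.05 without supplemented cow 6, and 0.20 in the 8 libraries). CD44, a receptor for hyaluronan that also binds selectins, differed by 0.49 ± 0.60 (0.01 without supplemented cow 6, 0.33 in the 8 libraries). ST3GAL4, a sialyltransferase that helps to make selectin ligands, was one of the genes with an unadjusted p under 0.05 (0.56 ± 0.25, edgeR adjusted p = 0.999; 0.33 without supplemented cow 6 and 0.34 in the 8 libraries).

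Of 17 integrins 10 were positive (median 0.18, -0.01 without supplemented cow 6, and 0.18 in the 8 libraries). ITGAL, the alpha chain of LFA-1, differed by 0.29 ± 0.53 and the gut homing chain ITGB7 by 0.53 ± 0.64; they turned to -0.19 and -0.12 without supplemented cow 6 and were 0.10 and 0.24 in the 8 libraries. ITGA4 differed by -0.03 ± 0.40 (0.39 in the 8 libraries) and ITGB1 by 0.18 ± 0.29 (0.18). Of 15 adhesion molecules of the immunoglobulin family and their partners 10 were positive (median 0.24, 0.0073 without supplemented cow 6, and 0.37 in the 8 libraries), with PECAM1 at -0.05 ± 0.44 (0.05 in the 8). Of 19 genes of integrin activation 18 were positive, with a median of 0.32 that became -0.07 without supplemented cow 6 and 0.11 in the 8 libraries. FERMT3 and TLN1, which switch integrins on, differed by 0.04 ± 0.18 and 0.09 ± 0.21, turning to -0.13 and -0.12 without supplemented cow 6 and to -0.05 each in the 8 libraries. Of 12 chemokine ligands 6 were positive (median -0.05, -0.38 to 0.95 with 1 library left out, and 0.36 in the 8 libraries), and CCL19, the ligand of CCR7, had at most 10 counts in a library.

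**Figure D4:**
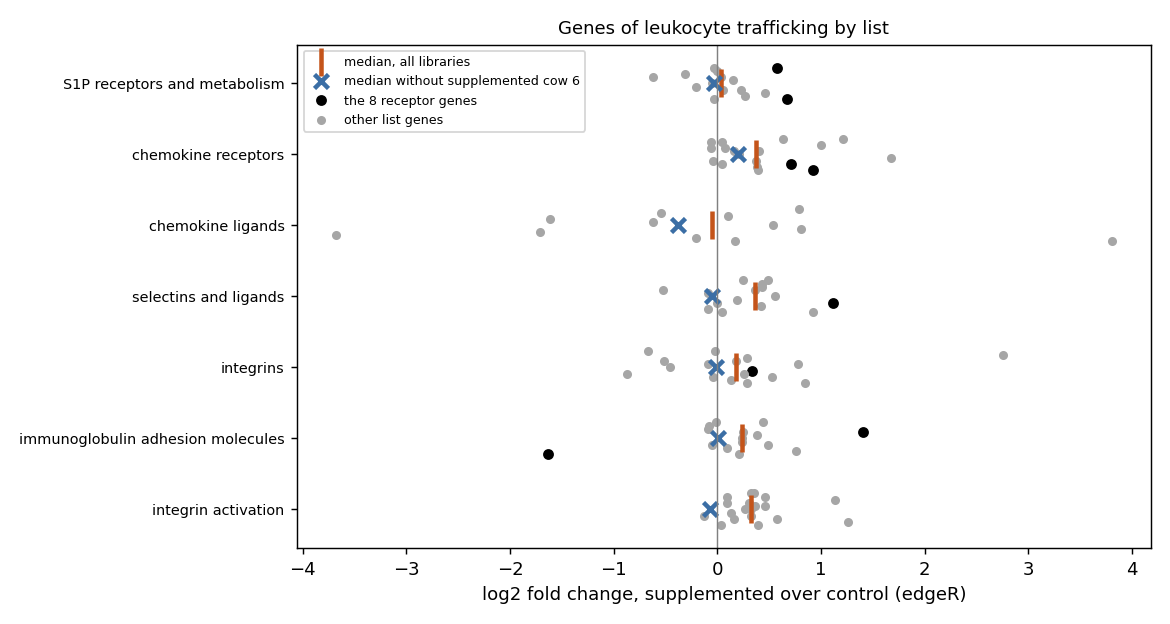
Log2 fold change (supplemented over control, edgeR) of each tested gene in the 7 lists, with the 8 receptor genes in black, the list median over all libraries as a bar and the median without supplemented cow 6 as a cross. The crosses lie left of the bars in all 7 lists, at -0.38 for chemokine ligands and between -0.07 and 0.20 for the other 6.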

How the data were processed

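Gene counts were deposited by the authors as raw whole numbers per gene and library, made with tools among FastQC, STAR, featureCounts and DESeq2 on build ARS-UCD1.2, per the submitters' processing notes. No source used names the annotation or strand setting, so overlapping or antisense genes cannot be told apart. The authors' deposited comparison gives log2 fold changes, standard errors and p-values, per the file headers. Index sequences came from a deposited sequencing summary.

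Genes with a mean count of at least 10 were tested with edgeR's quasi-likelihood test (TMM scaling, robust, two-sided, Benjamini-Hochberg over all genes, threshold 0.05). SE is the fold change over the square root of F. CPM uses TMM factors; its log2 form has a prior count of 2. Every pair of libraries differed beyond sampling noise (chi-square of at least 12.1 per degree of freedom), and the common biological coefficient of variation was 0.476. Each library is a separate cow, and replicate numbers only name cows. That fit was checked on simulated counts, with an outcome that is not given here. The simulation drew each gene around a single level changed only by group, so it did not cover the separate sets of libraries seen here. Named genes were the 8 genes, the 3 most alike of each, a chosen list of 28 pathway genes, and list genes with an unadjusted p under 0.05; ITGAX, ICAM2 and CCR1 of that list are not analysed here. A few other genes that this rule names are not reported here. The genes and lists were chosen with earlier results of these data known. Software was R 4.3.3, edgeR 4.0.16, limma 3.58.1, DESeq2 1.42.0, Python 3.11.15, numpy 2.4.6, scipy 1.17.1 and pandas 2.3.3. Alternatives were other tests, scalings, count filters, index terms and omitted libraries.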

Additional observations from a re-analysis of the deposited data

Results flagged for a closer look

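CCR7 in supplemented cow 6 lay far below its group. At 15.2 CPM, against 65.9 CPM in the next lowest supplemented cow, its gap took up 0.644 of the group's whole range in log2 CPM, above Dixon's 95% critical value for 6 samples. It was the only 1 of 16 groups so marked, 8 genes in 2 groups each, and chance marks about 5% of groups. The same library held 103101 CPM of neutrophil markers and 1028 CPM of B cell markers, the extremes of the 12, and 2123 CPM of T cell markers, within the range of the others. The part of these in the CCR7 value was not tested.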

How the results depend on the processing

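No paired analysis was possible because the labels give the groups no shared replicate numbers. The count of genes called was 0 in every edgeR and limma-voom fit and 2 with DESeq2; none of the 2 is among the 8 genes, of which 0 were called in any setting. Genes at an unadjusted p under 0.05 numbered 191, with 121 to 390 when 1 library was left out, 411 in the 8 libraries low on the first component, 406 with no count filter, 357 without supplemented cow 6 and control cow 5, and 291 in the larger index set. S1PR1, S1PR4, CCR7 and CCR2 kept a positive log2 fold change in all 23 alternative fits. Leaving out 1 library gave -0.13 to 1.53 for SELPLG, -0.33 to 2.03 for ICAM3 and -2.07 to 0.73 for ICAM1; differences of mean log2 CPM ranged from -0.76 to 0.48 for ICAM1, -0.0335 to 0.96 for SELPLG and -0.0271 to 0.35 for ITGAM. Omitting supplemented cow 6 and control cow 5 together gave 0.76 for ICAM1, -0.13 for ICAM3 and -0.0166 for ITGAM. In the 8 libraries ICAM1 was 0.47, and 0.16 as a difference of mean log2 CPM. With limma-voom ICAM1 was -0.13 against -1.63 in edgeR, and DESeq2 gave it no p. The correlation of S1PR4 with SELPLG, -0.04, was 0.0014 with no scaling factor; supplemented cow 6 is not among the 8 libraries, so leaving it out gives the correlations no other value. The causes were not tested. CCR2 and ICAM1 are limited by depth, at as few as 22 and 12 counts.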

Other observations

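Several trafficking genes outside the 8 were high in 1 cow. CCL2, the ligand of CCR2, stood at 21.0 CPM in supplemented cow 6, at 1.48 CPM in control cow 5 and at most at 0.443 CPM in the other 10 cows. CCL20, the ligand of CCR6, stood at 16.6 CPM in control cow 5, the cow with the highest ICAM1, and at most at 0.584 CPM elsewhere. ITGA9, an integrin alpha chain, stood at 81.3 CPM in supplemented cow 6 against at most 4.90 CPM elsewhere. Each had an unadjusted p under 0.05 in edgeR (adjusted p = 0.999), with log2 fold changes of 3.80 ± 1.75, -3.68 ± 1.47 and 2.76 ± 1.05. Exact permutation of log2 CPM gave p = 0.5, 0.524 and 0.212, so the edgeR values rest on the 1 high cow. Without supplemented cow 6 ITGA9 stood at 0.20 and CCL2 fell below the count minimum, as did CCL20 without control cow 5.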
